A study of Homo sapiens with 18 samples.

Results

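Immediate early genes are switched on by existing transcription factors within minutes of a stimulus and need no new protein to be made first. Described here are 10 such genes outside the AP-1 family (the FOS and JUN genes): the zinc finger transcription factors EGR1, EGR2 and EGR3, the orphan nuclear receptors NR4A1, NR4A2 and NR4A3, the short-lived response proteins IER2 and IER3, the zinc finger factor KLF6 and the small MAF protein MAFF. They were chosen by symbol from a count table of 60662 genes, and 10 of 10 were among the 18592 genes with enough counts to test. Growth factors reach many of these genes through ERK, the kinase that phosphorylates ELK1 at the serum response factor (SRF), and cyclic AMP reaches them through the factor CREB. Most early transcripts carry short half-lives, so their levels follow transcription closely. EGR proteins bind GC-rich promoter sites and induce their own corepressor NAB2. NR4A receptors act without a known natural ligand, and small MAF proteins lack a transactivation domain and work as partners of NFE2L2 and related factors.

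The cells were MCF10A, an established non-malignant line of human breast epithelium, and every library was poly-A RNA sequenced as 50 bp single reads. All cells were plated sparsely on compliant polyacrylamide gels carrying Matrigel (50 µg/ml), and those not attached after 1 h were removed. In 2D the cells then received fresh growth medium, and in 3D the same medium with 2% Matrigel, which sets around them; both media held 5% horse serum, EGF at 20 ng/ml, insulin at 10 µg/ml, cholera toxin at 100 ng/ml and hydrocortisone. EGF acts through ERK, and cholera toxin raises cyclic AMP. The protocol lists harvests at 3, 12 and 21 h after plating, and the labels number 3 timepoints without tying them to hours. There were 3 libraries in each of the 6 groups of culture and timepoint, 18 in all. The replicate number marks a date shared by all groups, and nothing in the labels says that replicates were separate cultures, so p-values measure the spread between these libraries.

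The file headers give library totals of 9.31 M to 17.7 M, and the counts in the table summed to 4.73 to 5.73 times these totals. Levels are therefore given as CPM, each count scaled to a common library total taken from the summed counts and adjusted by TMM. Since the sums exceed the totals, CPM is not compared from gene to gene and no counting interval is printed. Markers of the line were present, with 11 of 11 epithelial genes, among them KRT5, TP63, CDH1 and EGFR, counted in 18 of 18 libraries. Of 15 markers of other cell types, PGR, COL3A1 and CD3E were at 0 in all 18 libraries and COL1A2 and PTPRC in 16. Others were counted in every library, among them the fibroblast marker DCN (97.7 to 308 CPM), COL1A1 (115 to 511 counts), the hormone receptor ESR1 (3 to 47 counts), PECAM1, CD68 and CD14. Differences were tested with edgeR's quasi-likelihood F test over all kept genes, and called where the Benjamini-Hochberg adjusted p was under 0.05.

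The library of 2D timepoint 3 replicate 1 stood apart and was not in the tests. Its labels list the raw counts alone, and the authors' normalised table does not hold it. Its value lay nearer the mean of 3D timepoint 3 than that of the other 2D libraries for 10 of 10 members. The same was true of 260 of the 278 genes (93.5%) called between the cultures at timepoint 3 without it. Those genes were picked for a gap between 3D and the other 2D libraries, so this share cannot measure likeness over all genes. For 6 members this library lay within the 3D range, which spans 3 libraries. It lay within the 2D range, which spans only 2, for 0 members. The 2D group of timepoint 3 thus has n = 2, and each comparison of the members that involves it is given with and without this library.

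RefSeq's promoter table (GRCh38.p14, the 250 bases before and 50 after a start site) held 11 promoters for 7 of the 10 members. For 5 of them, EGR1, EGR2, IER2, KLF6 and MAFF, a promoter began at the gene start of the count table. Both strands were searched for the CArG box bound by SRF, the cyclic AMP response element (CRE) TGACGTCA, its half-site TGACG, the AP-1 site TGACTCA or TGAGTCA, the EGR site GCGGGGGCG or GCGTGGGCG, and TATAAA. A full CRE also holds the half-site on each strand. Shown here are 4 promoters, because the members they belong to fell with time and carry different elements, with capitals marking the matches.
EGR1, chr5:138465229-138465528, plus strand: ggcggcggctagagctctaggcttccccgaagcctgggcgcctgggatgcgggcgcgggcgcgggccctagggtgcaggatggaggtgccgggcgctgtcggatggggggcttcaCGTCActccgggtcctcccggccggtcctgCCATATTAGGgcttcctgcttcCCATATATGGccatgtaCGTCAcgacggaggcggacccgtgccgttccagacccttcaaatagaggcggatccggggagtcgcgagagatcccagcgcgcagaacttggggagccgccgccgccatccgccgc
EGR2, chr10:62816317-62816616, minus strand: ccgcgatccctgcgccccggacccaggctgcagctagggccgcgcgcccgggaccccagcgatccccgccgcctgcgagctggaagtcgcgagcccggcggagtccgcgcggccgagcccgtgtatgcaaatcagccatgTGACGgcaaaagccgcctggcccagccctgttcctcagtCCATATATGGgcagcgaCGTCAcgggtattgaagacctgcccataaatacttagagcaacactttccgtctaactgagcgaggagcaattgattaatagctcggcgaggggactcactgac
MAFF, chr22:38201744-38202043, plus strand: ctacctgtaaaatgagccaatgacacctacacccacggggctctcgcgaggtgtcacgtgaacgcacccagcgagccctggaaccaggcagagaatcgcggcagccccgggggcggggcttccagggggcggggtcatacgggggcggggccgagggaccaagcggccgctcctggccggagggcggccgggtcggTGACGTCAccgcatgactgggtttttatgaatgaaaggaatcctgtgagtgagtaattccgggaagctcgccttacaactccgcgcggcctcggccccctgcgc
KLF6, chr10:3785160-3785459, minus strand: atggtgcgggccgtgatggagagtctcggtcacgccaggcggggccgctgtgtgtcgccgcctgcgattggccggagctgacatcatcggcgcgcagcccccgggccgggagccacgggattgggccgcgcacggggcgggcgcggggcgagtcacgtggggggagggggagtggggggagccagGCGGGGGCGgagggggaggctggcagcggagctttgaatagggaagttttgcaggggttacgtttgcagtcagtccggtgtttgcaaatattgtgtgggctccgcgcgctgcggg

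EGR1 carried 2 CArG boxes, beginning 105 and 83 bases before the start, and 2 CRE half-sites. EGR2 carried 1 CArG box, beginning 71 bases before the start, with 2 half-sites. Of 35116 human promoters of this length, 1.29% held a CArG box and 24.6% a half-site. MAFF had 1 full CRE, beginning 54 bases before its start, and this element was present in 1.85% of promoters. KLF6 held neither a CArG box nor a CRE half-site in this window but 1 EGR site, a sequence found in 5.77% of promoters. IER2 had 1 half-site. No match to the AP-1 site or TATAAA was found in these windows, against 4.95% and 11.5% of all promoters. These matches describe letters in a window and say nothing of binding.

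Most members stood highest at timepoint 1 in both cultures and were lower by timepoint 2. In 2D, 7 of 10 fell from timepoint 1 to timepoint 2 (EGR1, EGR2, EGR3, NR4A1, IER2, KLF6 and MAFF), where 3.22% of all tested genes fell. In 3D, 8 of 10 fell, the same 7 and NR4A3, against 7.76% of all genes. NR4A2 and IER3 were not called lower in either culture. In bulk RNA, fewer cells of a kind and less RNA per cell cannot be told apart. The median log2 change of the members was -1.31 in 2D and -2.06 in 3D, beside -0.0035 and 0.0099 over all genes. The 2 comparisons use different libraries, but the difference between cultures was called for 0 members and 0% of all genes by edgeR. It was also called for 0 members with DESeq2 and 0 with limma-voom. At an unadjusted p under 0.05 by edgeR it was 3 members, beside 8.73% of all genes. No member is thus shown to fall further in one culture over this interval. Library properties moved over the same interval. In 3D mitochondrial genes went from 0.541 to 1.21% of counts to 0.364 to 0.482%, the ratio of summed counts to header totals from 4.88 to 5.53 to 5.54 to 5.73, and the summed epithelial markers from 10418 to 14412 CPM to 7209 to 8209. In 2D the mitochondrial ranges overlapped, the leukocyte markers (nearly all CD68 and CD14) went from 15.9 to 21.8 CPM to 27.2 to 40.9, and the fibroblast markers (nearly all DCN) from 136 to 166 CPM to 167 to 262. Their part in the falls was not tested.

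**Figure D1:**
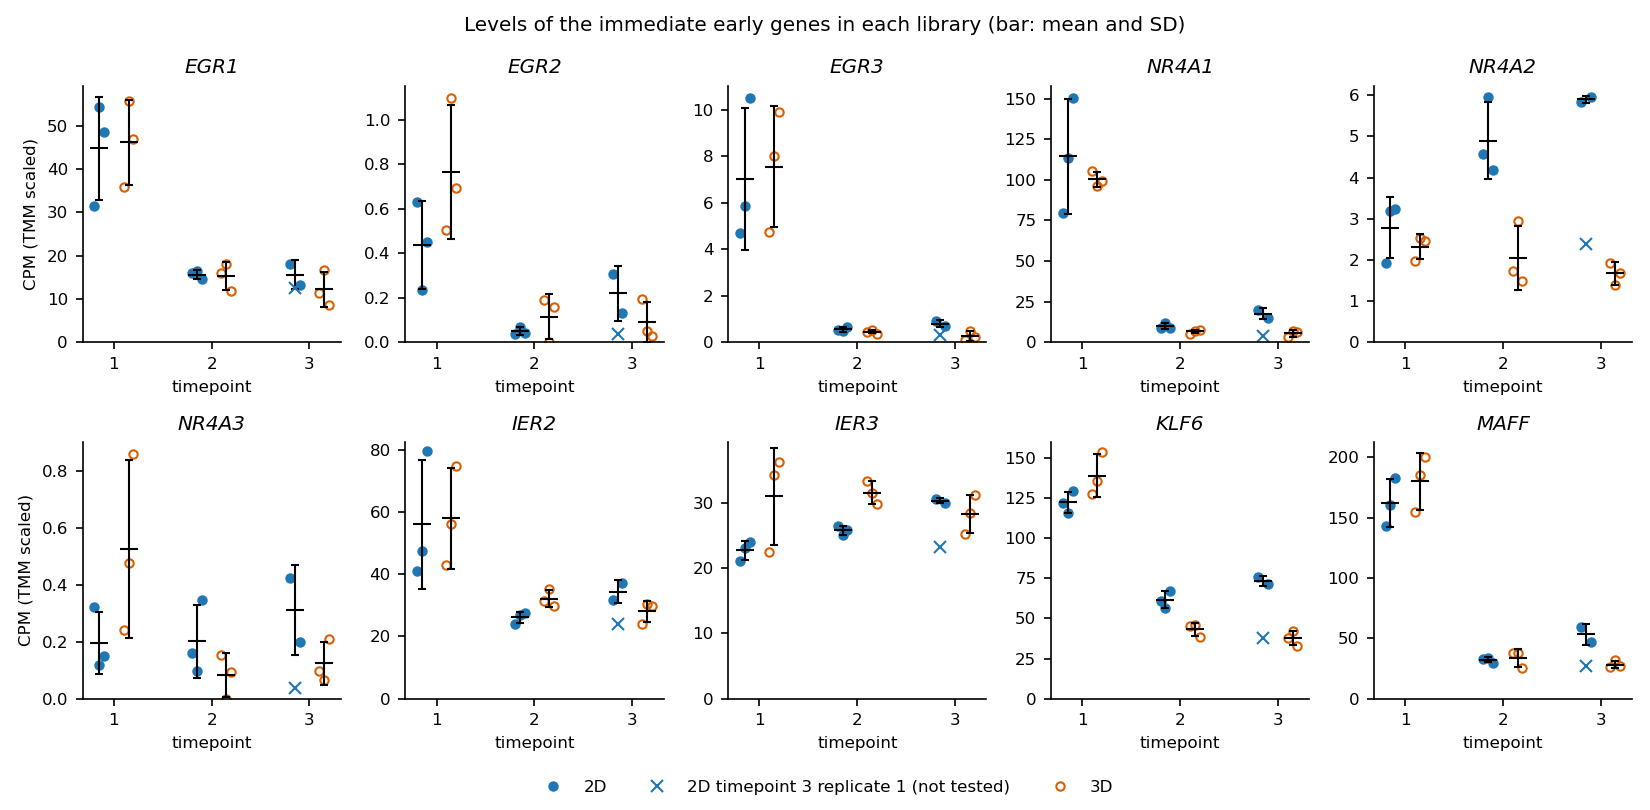
TMM-scaled CPM (linear axes from 0, a separate scale for each gene) of each member in every library against timepoint, with filled circles for 2D, open circles for 3D, bars for the mean and SD, and a cross for the 2D library that was not tested. Most members drop after timepoint 1 in both cultures, while NR4A2 stays between 1.40 and 2.95 CPM in 3D and reaches 5.97 in 2D; the cross lies within the 3D range at timepoint 3 for 6 members, above it for NR4A2, and below it for NR4A3, IER2 and IER3.

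Among the EGR genes, EGR1, a regulator of growth factor responses, stood at 31.5, 54.4 and 48.6 CPM in 2D and 36.0, 55.7 and 46.9 in 3D at timepoint 1. It measured 16.0, 16.4 and 14.6 in 2D and 16.0, 18.2 and 11.8 in 3D at timepoint 2. Every library of timepoint 1 lay above every library of timepoint 2. The fall was -1.52 (log2, SE 0.26; adjusted p = 0.00245 by edgeR) in 2D and -1.59 (SE 0.26; adjusted p = 0.000944) in 3D. EGR3, needed for the development of muscle spindles, went from 4.71, 5.86 and 10.5 CPM to 0.509, 0.474 and 0.678 in 2D. In 3D it went from 4.75, 8.01 and 9.90 to 0.463, 0.527 and 0.379. These ranges were also far apart, with log2 changes of -3.66 (SE 0.44) and -4.05 (SE 0.45). EGR2, known for its part in Schwann cell myelination, was thinly counted, with 14 to 59 counts in 2D and 40 to 85 in 3D at timepoint 1. At timepoint 2 it had 3 to 5 counts in 2D and 0 to 16 in 3D, so its log2 changes of -3.12 (SE 0.83; adjusted p = 0.0337 by edgeR) and -2.63 (SE 0.75; adjusted p = 0.0289) are coarse. The 2D call of EGR2 was lost with limma-voom (adjusted p = 0.0555) and in 5 of the 17 fits that each left out 1 library (adjusted p up to 0.131), and the 3D call in 3 of them (up to 0.115). On hg38, as in the count table, EGR1 spans chr5:138465479-138469303, EGR2 chr10:62811996-62816366 and EGR3 chr8:22687659-22693480; all 10 members are annotated as protein coding.

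The 3 NR4A receptors did not share a time course. NR4A1 (chr12:52051402-52059506), an early responder to many stimuli, was at 79.7, 113 and 150 CPM in 2D and 106, 96.1 and 99.2 in 3D at timepoint 1. It was at 8.85, 12.0 and 8.91 in 2D and 5.36, 7.26 and 7.52 in 3D at timepoint 2. All later libraries lay below all early ones, by -3.53 (log2, SE 0.30; adjusted p = 5.00e-06 by edgeR) in 2D and -3.90 (SE 0.31; adjusted p = 1.04e-06) in 3D. NR4A2 (chr2:156324437-156332721), best known for its part in dopamine neurons, instead measured 1.92, 3.20 and 3.23 CPM at timepoint 1 and 4.57, 5.96 and 4.18 at timepoint 2 in 2D. In 3D it measured 1.98, 2.53 and 2.46, then 1.73, 2.95 and 1.50. The 2D groups did not overlap and the 3D groups did. The 2D difference of 0.82 (log2, SE 0.27) had an adjusted p of 0.0872 by edgeR, and it passed with a replicate block, a term for the date each number marks (adjusted p = 0.0332). The 3D difference was -0.18 (SE 0.27). NR4A3 (chr9:99826727-99866891) was barely detected, with 0 to 52 counts in any library. Its fall in 3D of -2.54 (log2, SE 0.79; adjusted p = 0.0417 by edgeR) rests on 19, 37 and 52 counts at timepoint 1 and 13, 0 and 6 at timepoint 2, and it was lost with all 18 libraries (adjusted p = 0.0620) and in 5 of the 17 fits without 1 library (up to 0.108).

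KLF6 (chr10:3775996-3785209), a widely expressed growth regulator, stood at 122, 116 and 129 CPM in 2D and 128, 136 and 154 in 3D at timepoint 1. It stood at 61.0, 56.6 and 67.4 in 2D and 45.1, 46.0 and 38.3 in 3D at timepoint 2. At the second timepoint every 3D library was below every 2D library, and both were below timepoint 1, by -0.99 (log2, SE 0.14) and -1.69 (SE 0.14). MAFF (chr22:38201994-38216507) fell in both cultures. In 2D it moved from 143, 160 and 183 CPM to 32.9, 33.9 and 29.7, and in 3D from 155, 185 and 201 to 37.9, 37.7 and 25.0. The log2 changes were -2.33 (SE 0.19) and -2.43 (SE 0.19), with adjusted p = 2.17e-06 and 8.01e-07 by edgeR. IER2 (chr19:13150411-13154911), a nuclear protein induced by serum, fell from 41.0 to 79.6 CPM to 24.0 to 27.5 in 2D, and from 42.8 to 74.9 CPM to 29.9 to 35.1 in 3D. These falls of -1.10 (log2, SE 0.23) and -0.85 (SE 0.23) were the shallowest of those called in 3D and the next to shallowest in 2D. Leaving out 1 library ended the IER2 call in 2 of 17 fits in 2D (adjusted p up to 0.0513) and in 4 in 3D (up to 0.0794). IER3 (chr6:30743199-30744548), a regulator of cell survival, moved little: group means ran from 22.7 ± 1.4 CPM (SD, n = 3) in 2D timepoint 1 to 31.5 ± 1.8 (SD, n = 3) in 3D timepoint 2. Its time differences were between -0.16 and 0.41 (log2), and 0 of 6 passed.

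The later interval brought no call. From timepoint 2 to timepoint 3, edgeR called 0 members and 0% of all genes in 2D, and likewise in 3D. DESeq2 and limma-voom called 0 members in each. At an unadjusted p under 0.05 by edgeR it was 3 members in 2D, beside 6.82% of all genes. In 3D it was 0 members, beside 5.12%. Of the members' log2 values 9 of 10 were positive in 2D and 9 of 10 negative in 3D. Their medians were 0.46 and -0.27, beside -0.020 and -0.0089 over all genes. The share of all genes by sign is not given here, and correlated members are not separate observations. The interaction over this interval passed for 0 members. In 2D, 7 members had no overlap between the timepoints and were higher at timepoint 3, against 16.3% of all genes; this rests on 2 libraries. MAFF, for example, was at 59.4 and 47.1 CPM in 2D at timepoint 3 against 29.7 to 33.9 at timepoint 2 (0.73, SE 0.20; adjusted p = 0.691 by edgeR). The library left out of the tests stood at 27.1, and for none of the 7 was it above the timepoint 2 range. With all 18 libraries 0 members were thus higher without overlap, against 5.69% of all genes, and 7 of 10 log2 values were positive, since KLF6 (-0.0065) and NR4A2 (-0.052) turned negative.

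Over the whole course, from timepoint 1 to timepoint 3, 5 members fell in 2D (EGR1, EGR3, NR4A1, KLF6 and MAFF; 2.36% of all genes fell) and 1 rose, NR4A2 (2.5% rose). The same 5 fell with all 18 libraries, by -1.62 for EGR1, -3.48 for EGR3, -3.14 for NR4A1, -0.997 for KLF6 and -1.87 for MAFF (log2; adjusted p from 0.000150 to 0.00813 by edgeR), and IER2 made it 6, against 3.04% of all genes. The values of NR4A2 at 2D timepoint 3 were 5.85 and 5.97 CPM, above all 3 libraries of timepoint 1, and the change was 1.09 (log2, SE 0.29; adjusted p = 0.0424 by edgeR). The left-out library measured 2.40 CPM, and with it the rise no longer passed (0.77, adjusted p = 0.228). It also failed to pass in 9 of the 17 fits that each left out 1 library, with adjusted p up to 0.206. IER2 was lower with the block (-0.79, adjusted p = 0.0207) or with all 18 libraries (-0.86, adjusted p = 0.0491), but had an adjusted p of 0.150 with neither. In 3D 7 members fell (6.95% of all genes fell), the 5 just named with EGR2 and IER2. The deepest was EGR3 at -4.83 (log2, SE 0.48), then NR4A1 at -4.20 (SE 0.31) and, among the calls, IER2 was the shallowest at -1.05 (SE 0.23). The 3D call of EGR2 was lost in 3 of the 17 fits without 1 library (adjusted p up to 0.0892). Without 2D timepoint 3 replicate 2 the 2D count of calls dropped from 6 to 3, and without replicate 3 to 2.

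**Figure D2:**
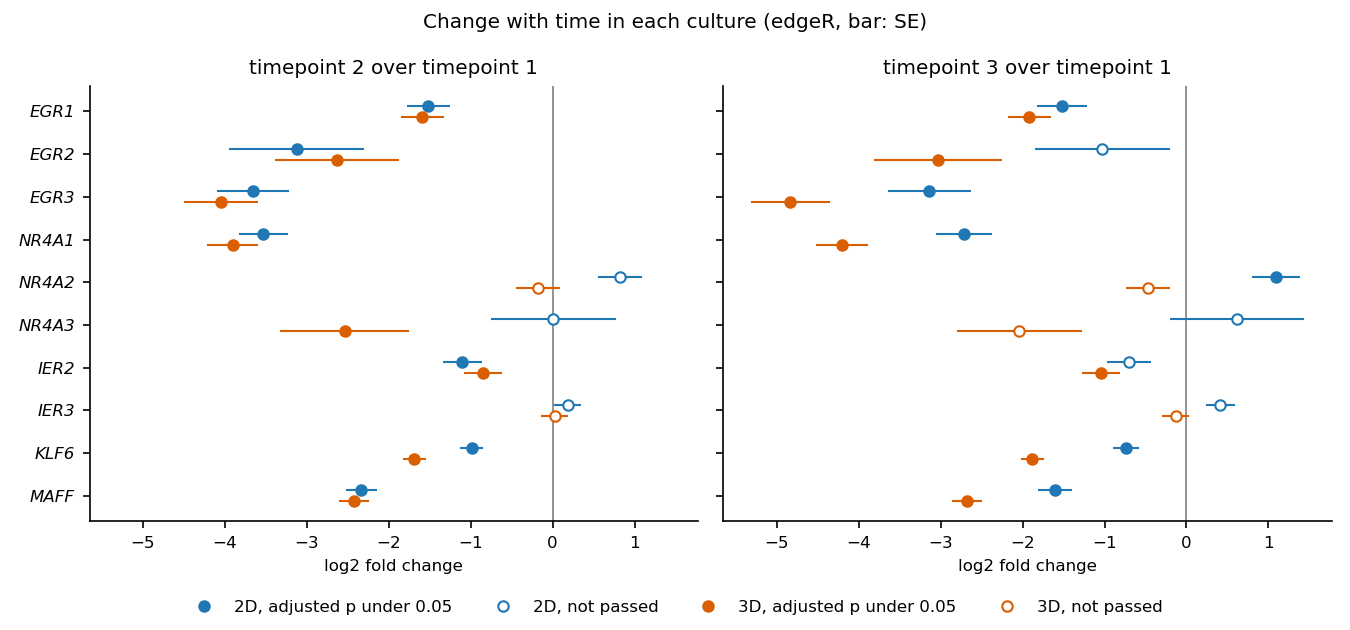
Log2 fold change with its SE of each member from timepoint 1 to timepoint 2 (left) and to timepoint 3 (right), in 2D (blue) and 3D (orange), with filled circles where the adjusted p was under 0.05. At timepoint 3 every 3D point lies to the left of its 2D point, with EGR3 at -4.83 in 3D and -3.14 in 2D and NR4A2 at -0.47 and 1.09.

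Put in order of group means over the tested libraries, EGR1, EGR3, NR4A1, IER2, KLF6 and MAFF each had the 2 groups of timepoint 1 on top, with overlapping ranges, and a gap to the next group. Below that gap NR4A1 and KLF6 showed the same order: 2D timepoint 3, 2D timepoint 2, 3D timepoint 2 and 3D timepoint 3. For both genes the ranges of the first 3 of these were apart and those of the last pair overlapped. EGR1 had no such separation, since its 4 lower groups overlapped from one to the next, at means from 15.7 down to 12.2 CPM. NR4A2 had another order, with 2D timepoint 3 (5.91 ± 0.08 CPM, SD, n = 2) and 2D timepoint 2 (4.90 ± 0.94, n = 3) above the other 4 groups, which ran from 2.78 to 1.67 and overlapped in turn. With the left-out library counted, the mean of 2D timepoint 3 was 4.75 CPM for NR4A2 and 61.6 for KLF6, below the 4.92 and 61.9 of 2D timepoint 2, and for NR4A1 it was 13.1 against 9.95 with overlapping ranges.

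At timepoint 1 no member was called between the cultures. edgeR called 0 of 10 members and 0% of all genes for 3D against 2D, and DESeq2 and limma-voom called 0 members each. At an unadjusted p under 0.05 by edgeR it was 1 member, beside 1.31% of all genes. That member was IER3, at 0.45 (log2, SE 0.16; unadjusted p = 0.0148), and its groups overlapped, with 22.5, 34.2 and 36.2 CPM in 3D against 21.1, 23.1 and 23.9 in 2D. The log2 differences of EGR1, EGR3, NR4A1, IER2, KLF6 and MAFF lay between -0.19 and 0.19. Those of the thinly counted NR4A3 and EGR2 were larger, at 1.38 (SE 0.73; unadjusted p = 0.0779) and 0.79 (SE 0.68), and NR4A2 was at -0.26 (SE 0.27), all with overlapping groups. IER3, KLF6 and MAFF were higher in 3D in 3 of 3 same-numbered pairs.

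At timepoint 2 NR4A2 was lower in 3D and no other member passed, where 0.785% of all genes were lower. The 3D libraries, at 1.73, 2.95 and 1.50 CPM, all lay below the 2D libraries, at 4.57, 5.96 and 4.18. The difference was -1.26 (log2, SE 0.27; adjusted p = 0.0365 by edgeR), which is 2.39-fold lower, and 3 of 3 same-numbered pairs were lower in 3D. The call was lost when any of 5 libraries of this timepoint was left out (all but 3D replicate 2; adjusted p up to 0.144), and with all 18 libraries (adjusted p = 0.0765). KLF6, also lower in 3 of 3 pairs and without overlap, had a difference of -0.52 (SE 0.14; adjusted p = 0.0668 by edgeR) and passed with the block (adjusted p = 0.0146). With the block 2 members were thus lower, against 6.86% of all genes. NR4A1 differed by -0.56 (SE 0.28; adjusted p = 0.274 by edgeR), also with no overlap. IER2 and IER3 pointed the other way without overlap, at 0.30 and 0.29, and did not pass. The share of all genes without overlap at this timepoint is not given here, so lack of overlap only describes these members. Several properties of the libraries moved with culture at this timepoint. Summed counts were 5.54 to 5.73 times the header totals in the 3D libraries, and 4.96 to 5.26 times in the 2D libraries. Mitochondrial genes took 0.364 to 0.482% of counts in 3D and 0.908 to 1.18% in 2D. The summed level of the 11 epithelial markers was 7209 to 8209 CPM in 3D and 8811 to 10806 in 2D. The 4 leukocyte markers summed to 17.7 to 24.4 CPM in 3D and 27.2 to 40.9 in 2D, all but traces of it CD68 and CD14, with CD3E at 0. Their part in these differences was not tested. Scaling by header totals moved the median of all genes from -0.03 to -0.23, and the difference of NR4A2 to -1.45, of KLF6 to -0.71 (adjusted p = 0.0163 by edgeR) and of MAFF from 0.06 to -0.14.

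At timepoint 3 all 10 members had negative log2 differences without the left-out library (9 of 10 with it, where IER3 was at 0.02), and 4 passed: NR4A1, NR4A2, KLF6 and MAFF, where 1.26% of all genes were lower. The same 4 passed with the block, where 5.3% of all genes were lower. The median log2 difference was -1.09 over the members and 0.015 over all genes, or -0.72 and -0.013 with all 18 libraries. All 3 same-numbered pairs were lower in 3D for 5 members, EGR1, EGR3, NR4A1, NR4A2 and MAFF, and 1 of 3 for NR4A3 and IER3. NR4A1 was at 2.98, 6.96 and 6.41 CPM in 3D and 19.9 and 15.1 in the tested 2D libraries. It was 3.21-fold lower in 3D (log2 -1.68, SE 0.31; adjusted p = 0.0122 by edgeR). NR4A2 was at 1.94, 1.40 and 1.69 CPM in 3D and 5.85 and 5.97 in 2D. This was a 3.52-fold difference (log2 -1.82, SE 0.30; adjusted p = 0.00548 by edgeR), larger than at timepoint 2, though the interaction between those timepoints did not pass (-0.56, SE 0.40; adjusted p = 0.816 by edgeR). KLF6 stood at 37.9, 42.2 and 33.1 CPM in 3D and 75.6 and 71.2 in 2D. The difference was 1.95-fold (log2 -0.96, SE 0.15; adjusted p = 0.00464 by edgeR). MAFF stood at 26.0, 31.6 and 26.7 CPM in 3D and 59.4 and 47.1 in 2D, a 1.89-fold difference (log2 -0.92, SE 0.20; adjusted p = 0.0276 by edgeR). For each of these 4 genes every tested 2D library was above every 3D library.

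These 4 calls depend on the library that was left out. That library measured 4.08 CPM for NR4A1, 37.5 for KLF6 and 27.1 for MAFF, all within the 3D range, and 2.40 for NR4A2, above the 3D maximum of 1.94. With all 18 libraries 0 members and 0 genes were called, and the adjusted p of the 4 genes ran from 0.217 to 0.404. With all 18 libraries and the block, NR4A1 and NR4A2 passed, KLF6 had an adjusted p of 0.0501 and MAFF 0.0826. Its own pair, 3D replicate 1, differed by -0.44 for NR4A1, -0.30 for NR4A2 and -0.05 for MAFF (log2 of CPM plus 0.05), and by 0.02 for KLF6. The other 2 pairs differed by -1.23 and -1.51 for NR4A1, -1.79 and -2.03 for NR4A2, -0.84 and -1.11 for KLF6 and -0.82 and -0.91 for MAFF. Without 2D replicate 2, which leaves 1 tested 2D library, 0 members were called. MAFF alone also lost its call without 2D replicate 3 or without 3D replicate 1 or 3. In 3D the share of mitochondrial counts at this timepoint was 0.398 to 0.533%, and in the tested 2D libraries 0.589 to 0.684%. The leukocyte markers summed to 19.4 to 26.5 CPM in 3D and 30.0 to 41.0 in 2D, the left-out library included. The part of these in the result was not tested.

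**Figure D3:**
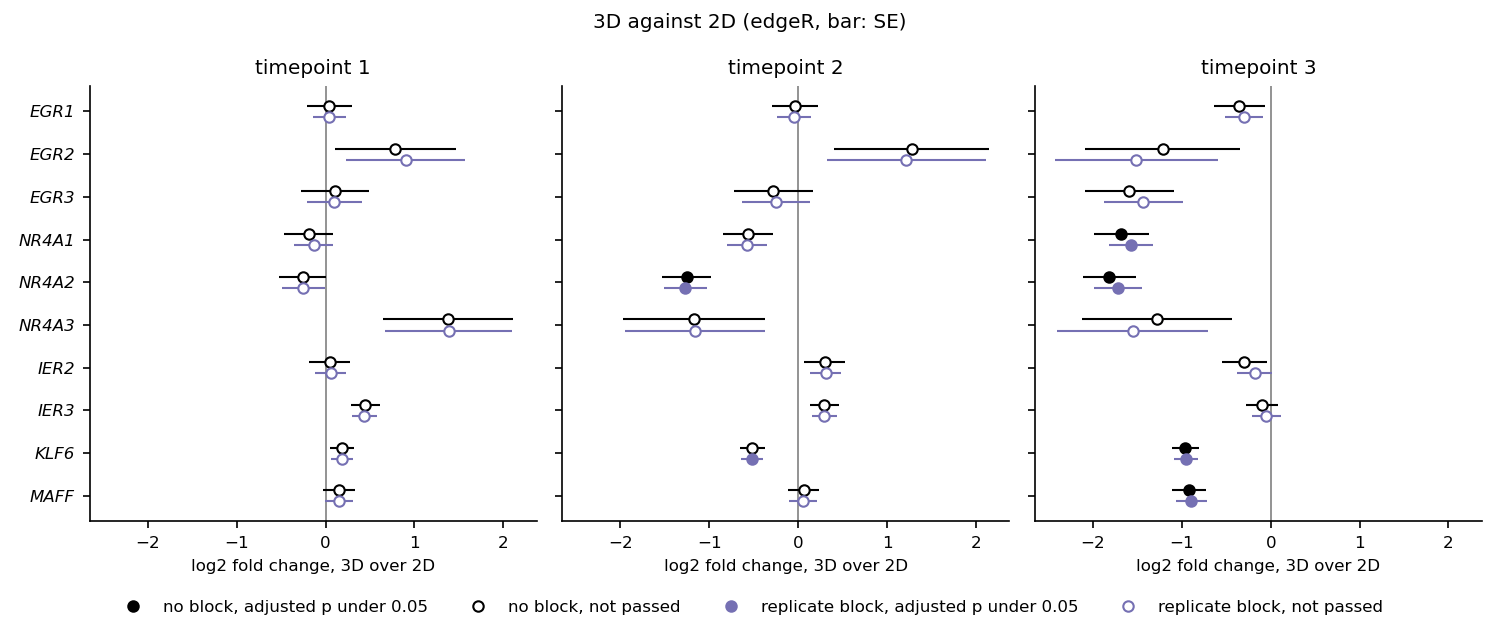
Log2 fold change of 3D over 2D with its SE for each member at the 3 timepoints, without a block (black) and with a replicate block (purple), filled where the adjusted p was under 0.05. No point is filled at timepoint 1, NR4A2 is at -1.26 at timepoint 2, and all 10 members lie left of 0 at timepoint 3 without the left-out library, where 4 are filled and EGR2, EGR3 and NR4A3 have wide bars.

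The other 6 members did not pass at timepoint 3. EGR3 had the largest of their differences, at 0.0975, 0.499 and 0.209 CPM in 3D and 0.904 and 0.694 in 2D. These groups were apart, but the counts were 7, 30 and 15 against 47 and 52, and the difference of -1.59 (log2, SE 0.51) had an adjusted p of 0.127 by edgeR. It passed with DESeq2 (adjusted p = 0.0368). By edgeR it passed with no filter on low counts (adjusted p = 0.00213) and without 3D replicate 2 (adjusted p = 0.0332). It also passed by edgeR with header totals and the block (adjusted p = 0.0361). EGR2 and NR4A3, with 2 to 22 counts in these libraries, differed by -1.22 (SE 0.87) and -1.28 (SE 0.84). EGR1 differed by -0.36 (SE 0.29), IER2 by -0.30 (SE 0.26) and IER3 by -0.10 (SE 0.18). These 6 differences ran with all 18 libraries from -1.25 (EGR3) to 0.02 (IER3), with adjusted p from 0.429 to 0.968 by edgeR. In all, 6 members did not overlap between the cultures, against 20.2% of all genes. With the left-out library NR4A2 alone did not, against 7.67% of all genes, and the groups of EGR3 then overlapped, that library being at 0.316 CPM.

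Whether the change with time differed between the cultures was asked of the interaction. From timepoint 1 to timepoint 3 all 10 values were negative, which is a deeper fall in 3D for 7 members and, for NR4A2, NR4A3 and IER3, a positive change in 2D beside a negative one in 3D. Of these 1 passed, KLF6 at -1.15 (log2, SE 0.21; adjusted p = 0.0320 by edgeR), where 0.177% of all genes were lower. The change of KLF6 was -0.74 (SE 0.16) in 2D and -1.88 (SE 0.14) in 3D. With the block 3 members passed, KLF6 (adjusted p = 0.0115), NR4A1 (-1.44, adjusted p = 0.0450) and MAFF (-1.04, adjusted p = 0.0457), where 1.02% of all genes were lower. With all 18 libraries none of the 10 passed, and KLF6 was at -0.89 (adjusted p = 0.980). The call of KLF6 was also lost in 10 of the 17 fits that left out 1 library, with adjusted p up to 0.286. From timepoint 2 to timepoint 3, 3 members and 4.67% of all genes had an unadjusted p under 0.05 by edgeR. After adjustment 0 members and 0% of all genes passed, and 0 members with DESeq2 and 0 with limma-voom. It was likewise 0 with all 18 libraries, where the median over the members was -0.36 in place of -0.58.

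The authors' deposited table of 3D against 2D, which holds 8 of the 10 members, marked 0 members at timepoint 1 at an adjusted p under 0.05, where it marked 0% of its 13677 genes. At timepoint 2 the authors' deposited table marked NR4A2 (log2 -1.36, adjusted p = 0.0176) and KLF6 (-0.56, adjusted p = 0.0412), beside 3.58% of its genes. At timepoint 3 the authors' deposited table marked the same 4 members as above, with KLF6 at -0.99, NR4A2 at -1.85, NR4A1 at -1.79 and MAFF at -0.94, beside 2.15% of its genes. The labels of the left-out library do not list it with that table, so these marks do not check the effect of leaving it out.

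Related genes give the setting for these values. In a list of 19 AP-1 and other early transcription factors, 3 were lower in 3D at timepoint 2 and 7 at timepoint 3, and none was higher. Of all tested genes 0.785% and 1.26% were lower. ATF3, a stress-induced partner of JUN, was the most changed, at 3.27 to 3.72 CPM in 3D and 71.6 to 80.2 in 2D at timepoint 3 (log2 -4.43, SE 0.37; adjusted p = 3.79e-05 by edgeR). FOSB, an AP-1 subunit, differed by -3.26 (SE 0.37), KLF4, a factor of epithelial differentiation, by -2.43 (SE 0.26), and FOS by -1.69 (SE 0.26). At timepoint 2 the lower ones were FOSB (-2.21), ATF3 (-2.00) and KLF4 (-1.02). The median of the list at timepoint 3 was -1.05, close to that of the members. With the block 6 and 10 of the 19 were lower, against 6.86% and 5.3% of all genes. At timepoint 1 none of the list was called, and JUN (1.48, SE 0.41) and KLF10 (0.52, SE 0.18) had the smallest p. In time, 14 of the 19 fell in 3D from timepoint 1 to timepoint 3, against 6.95% of all genes. In 2D 2 fell and 2 rose, against 2.36% and 2.5%, and the interaction was lower in 5, against 0.177%. These 2D and interaction counts leave out 2D timepoint 3 replicate 1. With that library and no block the interaction passed for 0% of all genes.

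Of 22 other early response genes 21 were tested, ARC being too low. At timepoint 3, 5 were lower in 3D against 1.26% of all genes (9 with the block, against 5.3%), with a median of -0.44. They include PPP1R15A, a phosphatase subunit that reverses the translational arrest of the stress response (-2.25, SE 0.25), the small GTPase RHOB (-1.77, SE 0.35), the mRNA decay factor ZFP36 (-1.04, SE 0.21) and the antiproliferative BTG2 (-0.90, SE 0.20). At timepoint 2 BTG2 alone was lower (-0.90, SE 0.18; adjusted p = 0.0264 by edgeR), where 0.785% of all genes were lower. With the block 1 was higher and 2 were lower, where 6.86% of all genes were lower. With all 18 libraries and no block, no gene of any list passed at timepoint 3, since none of 18111 tested genes did. With all 18 libraries and the block, 1052 of all genes were called there.

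The ERK feedback genes, the SRF and CREB inputs and the partners of the members gave no call between the cultures without the block. A few were called with it. Of 13 ERK feedback genes, such as the DUSP phosphatases and the Sprouty inhibitors, 0 were called at any timepoint, with a median of -0.13 at timepoint 3. ERRFI1, an inhibitor of the EGF receptor, was at -0.66 (SE 0.22; adjusted p = 0.147 by edgeR) and passed with the block (adjusted p = 0.00124), the single gene of this list that did. With the block 5.3% of all genes were lower at timepoint 3. At timepoint 2 the block gave 2 lower, ERRFI1 (-0.51, adjusted p = 0.00399) and the Sprouty gene SPRY2 (-0.61, adjusted p = 0.0479), against 6.86% of all genes. Of 13 SRF and CREB inputs 0 were called, with a median of 0.05 at timepoint 3. With the block 1 was higher and 3 were lower at timepoint 3, and 2 were higher at timepoint 2, CREM (0.46, adjusted p = 0.0327) and the kinase gene RPS6KA4 (0.39, adjusted p = 0.0174). Of all 18592 genes the block called 1813 at timepoint 3, 986 of them lower. At timepoint 2 it called 2949, of which 1275 were lower. At timepoint 3 CREM, whose products include the early repressor ICER, was the nearest at 0.80 (SE 0.20; adjusted p = 0.0575 by edgeR) and was higher with the block (adjusted p = 0.0115), while the CREB coactivator CRTC2 was at -0.50 (SE 0.14; adjusted p = 0.0975) and was lower with it (adjusted p = 0.0103). The other two lower with the block were MRTFA, an SRF coactivator (-0.62), and CRTC3 (-0.58). Of 9 partners and corepressors of the members 0 were called and 8 had negative values at timepoint 3, with a median of -0.45. NFE2L1 (-0.97, SE 0.36) and MAFK (-0.80, SE 0.30), the latter a small MAF protein beside MAFF, passed with the block, where 4 of the 9 were lower, as were 3 at timepoint 2. The shares of all genes lower with the block were 5.3% at timepoint 3 and 6.86% at timepoint 2. These lists differ in size and level, and differences between them were not tested.

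**Figure D4:**
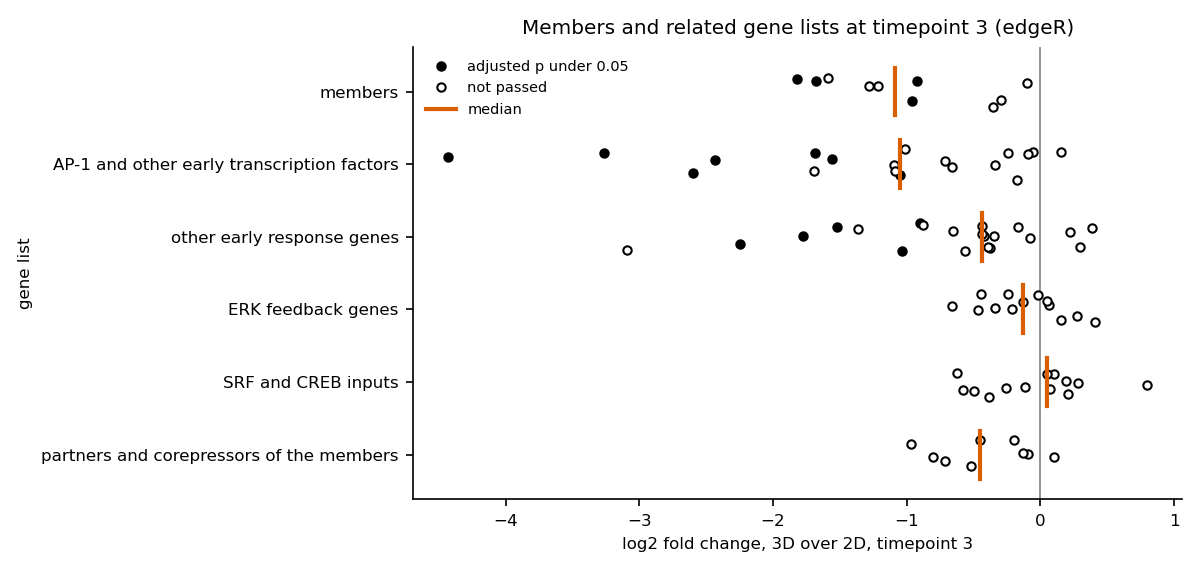
Log2 fold change of 3D over 2D at timepoint 3 for each tested gene of the members and of the 5 related lists, filled where the adjusted p was under 0.05, with an orange bar at the median (points are spread vertically for legibility only). The members and the AP-1 list have medians of -1.09 and -1.05, the ERK feedback and SRF and CREB lists have medians of -0.13 and 0.05.

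Across the 17 tested libraries EGR1, EGR3, NR4A1, KLF6 and MAFF followed each other, with Pearson correlations of log2 CPM from 0.91 to 0.98, as a description in which the shared fall after timepoint 1 weighs most. NR4A2 correlated with the other members between -0.13 and 0.22, and IER3 between -0.26 and 0.15. The genes below were among the 3 most like each member of about 13572 well-counted genes. For NR4A1 they were HES2 (0.98), TPPP (0.98) and AC025259.3 (0.98), and for EGR3 HES2 (0.98), NR4A1 (0.98) and LIF (0.97). KLF6 was like TPPP (0.98) and CLDN1 (0.97), and MAFF like ITPKC, METRNL and MYADM (0.98 each). EGR1 was close to CYTH1 (0.98) and AC037198.2 (0.97). NR4A2 had other neighbours, FBXO32 (0.92), DYSF (0.89) and H1F0 (0.89). EGR2 was closest to TGIF1 (0.89), BAIAP2L1 and C3orf52 (0.86 each), and NR4A3 to ATP6V1B2 (0.77), RIN2 (0.77) and C20orf96 (0.76). IER2 was close to AC011446.2 (0.98) and CYTH2 (0.96), and IER3 to HCG20 (0.82), AC011611.3 (0.79) and MIR3661 (0.78). AC025259.3, AC011446.2 and HCG20 overlap NR4A1, IER2 and IER3 on the opposite strand. The sources used here do not state whether counting used strand, so their reads and those of the members cannot be told apart, although they held at most 452, 1473 and 161 counts. IER3-AS1, also opposite IER3, held 179 to 423 counts, and AC011446.3, opposite IER2, 4 to 26. EGR3 also overlaps AC055854.1, with 0 to 16 counts.

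**Figure D5:**
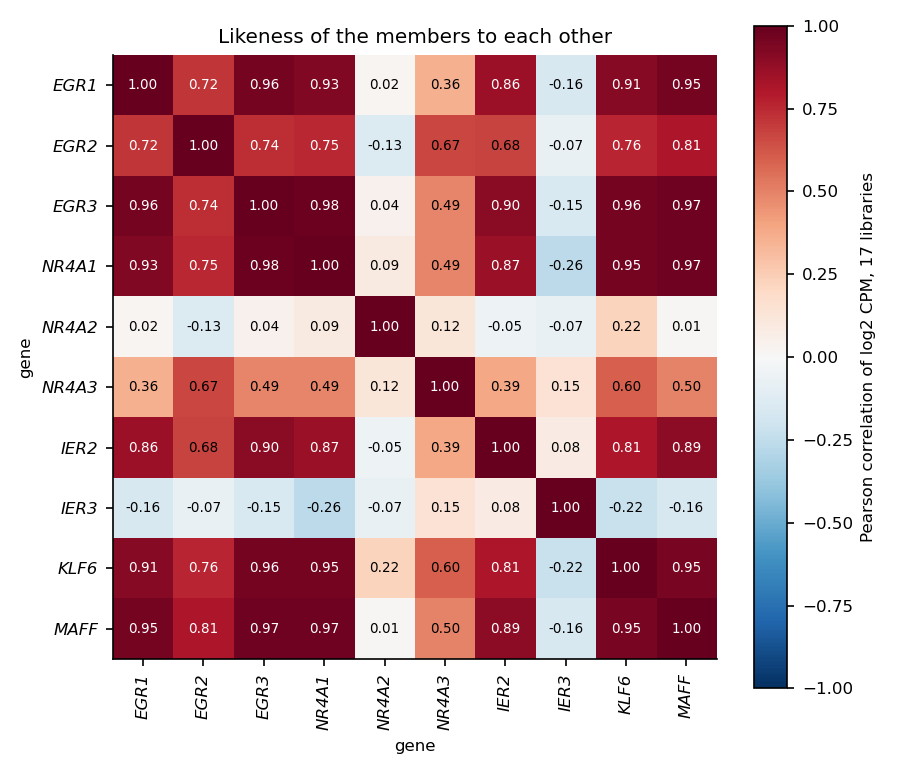
Pearson correlation of TMM-scaled log2 CPM between each pair of members over the 17 tested libraries, coloured from -1 (blue) to 1 (red). EGR1, EGR3, NR4A1, KLF6 and MAFF form a block of 0.91 to 0.98, and the rows of NR4A2 and IER3 are near 0.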

How the data were processed

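Poly-A RNA of MCF10A cells was sequenced, and the sample titles give each library's group and replicate. Per the submitters' processing notes the tools were STAR 2.7.1a and HOMER, with edgeR and limma, and the build was hg38. Their roles, the annotation release and the strand setting were not given in the sources used here. In the authors' files, the deposited count table holds whole-number counts per gene without normalisation. The deposited log2 CPM table holds 17 libraries scaled by the authors, and was used to check the sign of the authors' log2 fold changes, which matched its group means for 97.2 to 99.5% of genes. The deposited comparison tables also give the authors' p-values, and their other columns (scores such as the moderated statistic) were not used. 0 sample columns were left unused.

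Counts of 17 libraries were filtered with filterByExpr, scaled by TMM and tested with edgeR 4.0.16 in R 4.3.3, with SE as the log2 fold change over the square root of F. The common dispersion was 0.0686, or 0.0363 with a replicate block. The replicate number marks a shared date in the labels, and same-numbered libraries deviated together (correlations of 0.186 to 0.514 in 8 pairs), so blocked values are given where they change a call or a count. The authors' counts were also tested with DESeq2 1.42.0 and limma-voom (limma 3.58.1), and 27 settings were tried, 3 of them added after seeing the data (header library totals, these with the block, and 18 libraries with the block). The members, lists and tests were chosen with earlier results of these data known. Named were all members, up to 4 called genes of each related list per culture comparison by smallest p (or 2 with values only where none was called; SPRY2, MRTFA and CRTC3 were added after their values were seen), and the 3 genes best correlated with each member (prior count 2, mean count of at least 50). Some of these correlated genes are not reported here.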

Additional observations from a re-analysis of the deposited data

Results flagged for a closer look

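The change of KLF6 from timepoint 1 to timepoint 3 differed between the cultures by -1.15 (log2, 3D minus 2D; SE 0.21; adjusted p = 0.0320 by edgeR's quasi-likelihood test over all genes). All 3D libraries of timepoint 3 lay below both tested 2D libraries, and at timepoint 1 the cultures overlapped. The call did not hold with the library of 2D timepoint 3 replicate 1, where the difference was -0.89.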

How the results depend on the processing

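The number of members called, out of 10, was recomputed under 27 settings for 12 comparisons, and no called value reversed its sign. For 3D against 2D at timepoint 2 it was 1, and became 2 with DESeq2, with the replicate block and with header library totals, 3 with header totals and the block, and 0 with all 18 libraries. The calls over all 18592 genes also rose, from 277 to 1336 with DESeq2, 2949 with the block and 491 with header totals. They were 3777 with header totals and the block, and 82 of 18111 with all 18 libraries. At timepoint 3 the number of members was 4, and became 5 with DESeq2, 0 with all 18 libraries and 2 with all 18 and the block. EGR3 was the member added with DESeq2, and was also added with no filter and with header totals and the block. Over all genes the calls there were 278 of 18592, and 1016 with DESeq2. They were 1625 of 35211 with no filter, and 2005 with header totals and the block. With all 18 libraries they were 0 of 18111, and 1052 with the block. The interaction of timepoint 3 and timepoint 1 gave 1, and 3 with DESeq2 and with the block, 5 with no filter, 4 with header totals and the block, and 0 with all 18 libraries, blocked or not. Of all genes 0.177% were lower in this interaction, 1.02% with the block, and DESeq2 called 140. The calls over all genes with no filter, and with header totals and the block, are not given here. The 5 and the 4 thus only describe these members. The interaction of timepoint 2 and timepoint 1 gave 0, and 1 with header totals and the block, where the calls over all genes are likewise not given. The cause of these changes was not tested.

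Leaving out each of the 17 libraries in turn gave 0 to 2 calls for the cultures at timepoint 2 (2 without 3D timepoint 1 replicate 3), 0 to 5 at timepoint 3 (5 without 3D replicate 2), and 0 to 1 for the interaction of timepoint 3 and timepoint 1. For time in 2D the counts were 5 to 8 from timepoint 1 to timepoint 2 and 2 to 6 to timepoint 3. In 3D they were 5 to 8 (5 without 3D timepoint 1 replicate 2 or timepoint 2 replicate 3) and 6 to 7. Over all genes the culture calls at timepoint 2 ran from 0 to 778 in these fits. At timepoint 3 they were 315 without 3D replicate 2, 72 without 3D replicate 1 and 135 without 3D replicate 3, against 278. From timepoint 1 to timepoint 2 in 2D the calls over all genes were 618 without 2D timepoint 2 replicate 1, against 1092. For the other comparisons the calls over all genes in these fits are not given here, so those counts only describe these members. A group left with 1 library is assumed to vary like the others. The block moved no other count by over 1.5 times; it added NR4A2 (timepoint 2) and IER2 (timepoint 3) to the time calls in 2D. Depth limits EGR2 and NR4A3, which a mean count of at least 50 removes.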
